A study of Homo sapiens with 9 samples.

Results

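Metallothioneins and zinc transporters were examined as a set of 10 genes: the metallothioneins MT2A, MT1X, MT1E and MT1F, the zinc exporters SLC30A1 and SLC30A4, the zinc importers SLC39A1, SLC39A6 and SLC39A7, and the zinc-sensing transcription factor MTF1. They were chosen by gene symbol, with earlier results of these data known, and all 10 were found among the 60880 genes of the count tables. Of these, 9 had enough reads to be tested, among 18389 tested genes. The tenth, MT1E, had 1 read in all.

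RNA came from LNCaP, a human prostate cancer line that responds to androgens, grown in RPMI with 10% fetal bovine serum, with 24 h given as the time point for every library. The 3 groups were a control titled NT, a UGT2B28 knockdown titled KD4, and a UGT2B28 rescue titled KD4OE, which overexpresses UGT2B28 on top of the knockdown, with 3 libraries each. The labels name puromycin (3 µg/mL) as the selection antibiotic for knockdown and G418 (1 mg/mL) for rescue, so antibiotic and construct cannot be told apart between these groups. Both antibiotics are listed in the protocol given for every library, and neither is named for control in particular. A single knockdown line was sequenced, and the labels do not say whether replicates were separate cultures, so p-values reflect the variation among these libraries alone, and that may be technical.

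UGT2B28, an enzyme that conjugates steroids to glucuronic acid, had 25, 4 and 10 counts in control, 17, 8 and 1 in knockdown, and 1124, 1554 and 1857 in rescue. With so few reads, knockdown could not be told from control (−0.60 ± 0.62 as log2 fold change ± SE, adjusted p = 0.52), so the knockdown libraries are named by their label throughout. Gene counts per library ranged from 20300744 to 26459528. Luminal prostate markers (10 genes) summed to 4070 to 4370 CPM (read counts scaled to library size) in control libraries, against 8990 to 9480 with the knockdown label and 9070 to 10000 with the rescue label. Most of that difference lay in the androgen-responsive genes KLK3, KLK2 and TMPRSS2. Average CPM in control and knockdown were 1430 and 3750 for KLK3, 125 and 1700 for KLK2, and 236 and 815 for TMPRSS2. Of the 10 markers, 8 were called higher in knockdown than in control, where 16.5% of all tested genes were. The epithelial keratin KRT18 was among them (470 and 565 CPM, adjusted p = 0.0064). Only KRT8 (1010 and 1060, adjusted p = 0.52) and EPCAM (79.7 and 82.9, adjusted p = 0.64) did not pass. Basal markers (5 genes) summed to 5.36 to 6.92, 10.9 to 14.7 and 11.4 to 14 CPM in the same order, mostly DST and KRT14. In knockdown these 2 were called higher than in control, whereas KRT15 was called lower (−4.09 as log2 fold change, adjusted p = 0.0064). KRT5 and TP63 were too low to test. The 5 neuroendocrine markers summed to 1100 to 1210, 687 to 817 and 1150 to 1180 CPM, nearly all of it ENO2. Markers of fibroblasts, endothelium and immune cells (7 genes) summed to 67.8 to 76.9, 52.1 to 61.3 and 66.9 to 78.6 CPM, mostly COL1A1, with the immune marker PTPRC at 0 counts in every library. The part of these marker differences in the results below was not tested.

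Metallothioneins are small proteins whose many cysteines bind zinc, copper and cadmium, and they buffer free zinc in the cytosol. When zinc rises, MTF1 binds metal response elements in the promoters of metallothionein genes and of SLC30A1 and raises their transcription. SLC30 proteins move zinc out of the cytosol, across the plasma membrane or into organelles, and SLC39 proteins move it in. Normal prostate epithelium is known for holding much zinc, and prostate cancer tissue for holding less.

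Promoter sequences were matched by symbol in a RefSeq table (GRCh38.p14), which held 8 of the 10 genes, all but MT1E and MT1F. The count tables use another build (hg19), so these coordinates apply to the printed sequences only. Below are the 250 bases upstream of the start site for the 2 most abundant metallothioneins, for the exporter that MTF1 is known to induce, and for MT1H, a metallothionein with no reads. Capitals mark matches to the core of the metal response element, TGCACNC or TGCGCNC, on either strand.
MT2A (chr16:56608334-56608583, plus strand): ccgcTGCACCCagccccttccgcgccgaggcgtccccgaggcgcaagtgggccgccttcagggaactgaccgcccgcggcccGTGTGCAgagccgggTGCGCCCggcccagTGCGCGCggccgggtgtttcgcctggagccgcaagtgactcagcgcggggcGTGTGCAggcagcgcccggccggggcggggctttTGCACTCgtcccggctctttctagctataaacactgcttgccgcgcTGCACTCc
MT1X (chr16:56682220-56682469, plus strand): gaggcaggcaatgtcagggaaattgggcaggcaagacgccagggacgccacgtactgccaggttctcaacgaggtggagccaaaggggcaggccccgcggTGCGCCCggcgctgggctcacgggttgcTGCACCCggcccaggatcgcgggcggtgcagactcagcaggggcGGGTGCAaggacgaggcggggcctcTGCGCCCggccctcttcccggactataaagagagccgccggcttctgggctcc
SLC30A1 (chr1:211579162-211579411, minus strand): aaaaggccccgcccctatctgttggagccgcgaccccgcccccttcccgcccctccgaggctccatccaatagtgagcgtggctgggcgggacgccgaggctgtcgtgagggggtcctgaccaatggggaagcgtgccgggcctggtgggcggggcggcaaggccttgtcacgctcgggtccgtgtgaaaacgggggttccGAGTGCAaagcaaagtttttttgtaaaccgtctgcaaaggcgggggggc
MT1H (chr16:56669564-56669813, plus strand): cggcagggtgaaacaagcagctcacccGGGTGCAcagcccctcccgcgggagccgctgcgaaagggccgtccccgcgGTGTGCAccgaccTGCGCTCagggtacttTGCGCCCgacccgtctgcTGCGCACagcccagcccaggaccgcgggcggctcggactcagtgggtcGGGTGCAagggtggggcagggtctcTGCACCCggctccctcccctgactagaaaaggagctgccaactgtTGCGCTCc

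MT2A held 7 matches, at positions from −246 to −8 relative to the start site, and MT1X held 4. In SLC30A1 there was 1 match, on the other strand. Of the other promoters, SLC30A4, SLC39A6 and 1 of 2 SLC39A1 promoters held 1 match each, and those of MTF1 and SLC39A7 held 0. At least 1 match was present in 24.8% of all 35116 promoters of this length, at least 4 in 0.37% and at least 7 in 0.031%. MT1H, at 0 counts in all 9 libraries, held 8 matches, so the number of matches did not order these genes by their level. A match is a run of letters and not a measured binding site.

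Coding sequences are shown because the expressed metallothioneins are close copies, which bears on how reads can be assigned. They come from the GENCODE v29 transcripts, and capitals mark cysteine codons.
MT2A: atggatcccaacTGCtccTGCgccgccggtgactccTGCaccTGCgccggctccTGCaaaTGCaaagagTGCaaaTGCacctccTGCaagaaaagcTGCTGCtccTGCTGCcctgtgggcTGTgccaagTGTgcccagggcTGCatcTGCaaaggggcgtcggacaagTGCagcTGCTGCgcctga
MT1X: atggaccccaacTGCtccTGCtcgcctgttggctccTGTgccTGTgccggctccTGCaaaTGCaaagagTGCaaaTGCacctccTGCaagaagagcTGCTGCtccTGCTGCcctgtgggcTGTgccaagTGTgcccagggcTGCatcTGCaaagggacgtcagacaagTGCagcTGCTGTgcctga
MT1F: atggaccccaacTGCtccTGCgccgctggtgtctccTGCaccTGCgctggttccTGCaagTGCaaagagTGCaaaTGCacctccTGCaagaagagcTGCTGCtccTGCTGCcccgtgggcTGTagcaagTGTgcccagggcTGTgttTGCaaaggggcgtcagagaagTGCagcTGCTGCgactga
MT1G: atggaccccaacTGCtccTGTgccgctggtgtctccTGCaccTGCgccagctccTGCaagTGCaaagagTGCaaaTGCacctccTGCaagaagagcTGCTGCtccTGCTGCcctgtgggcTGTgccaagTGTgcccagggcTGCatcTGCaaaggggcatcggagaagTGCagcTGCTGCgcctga

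Each has 186 bases and 61 codons before the stop, 20 of which encode cysteine. MT2A and MT1X were identical at 92.5% of bases, MT2A and MT1G at 95.2%, and MT1X and MT1F at 88.7%. Over whole transcripts, which include the more divergent ends, 3.02% of the 50-base windows of MT2A occurred in another gene, against 18.3% for MT1X, 1.22% for MT1F and 16.5% for MT1G. With 150-base windows, the shares were 0 for MT2A, MT1F and MT1G and 8.58% for MT1X. The gene sharing most with MT1X was an overlapping transcript (ENSG00000259827) with 0 counts in every library. That 0 does not show how many reads of the shared stretch were set aside as ambiguous. The count tables list ambiguous and multiply aligned reads apart from the genes, so values of these genes hold only the reads that could be told apart.

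Knockdown was compared with control to see which of these genes differed when the line carried the UGT2B28 knockdown. All 3 tested metallothioneins of the set, both exporters and 2 importers were higher in knockdown, and no member was lower. That is 7 of 9 tested members, where 16.5% of all tested genes were called higher (edgeR adjusted p under 0.05), 15.6% lower and 32.1% in either direction. The members were chosen with earlier results of these data known, so these shares do not compare an independently chosen set with the background. The median log2 fold change was 0.78 over the 9 members and 0.01 over all tested genes. SLC39A7 and MTF1 did not pass the test.

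MT2A, the main metallothionein of most human tissues, was at 1920, 2110 and 2180 CPM in control, 3080, 4430 and 3720 in knockdown, and 3070, 3450 and 3480 in rescue. Every knockdown and rescue library lay above every control library. By rank of mean CPM among all genes, MT2A stood at 35 in control, 18 in knockdown and 20 in rescue. The fold change in knockdown over control was 1.81 (log2 fold change 0.85, SE 0.10, adjusted p = 2e-07). Rescue was also above control (log2 fold change 0.69, SE 0.10, adjusted p = 4.2e-06). Between rescue and knockdown the libraries overlapped, with a log2 fold change of −0.17 (interval −0.41 to 0.08, adjusted p = 0.35).

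MT1X was at 39.9, 50.3 and 51.9 CPM in control, 92.1, 142 and 121 in knockdown, and 79.6, 86.3 and 83.1 in rescue. The 3 groups did not overlap, and rescue lay between control and knockdown. Knockdown was 2.50-fold above control (log2 fold change 1.32, SE 0.13, adjusted p = 1.9e-06) and rescue 1.76-fold (adjusted p = 0.00019). MT1X fell from knockdown to rescue by 0.51 on the log2 scale (SE 0.13, adjusted p = 0.021). The adjusted p rose above 0.05 when any 1 of 5 libraries was left out, reaching 0.055 without knockdown replicate 2 (−0.36), 0.083 without knockdown replicate 3, 0.11 without rescue replicate 1, 0.055 without rescue replicate 2 and 0.083 without rescue replicate 3.

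MT1F was a minor metallothionein in these cells, with 35, 33 and 28 counts in control, 63, 55 and 74 in knockdown, and 77, 112 and 72 in rescue. Mean CPM were 1.37 ± 0.14, 2.71 ± 0.606 and 3.65 ± 0.904 in that order (SD, n = 3). Knockdown lay above control (log2 fold change 0.98, SE 0.30, adjusted p = 0.013). This call rested on knockdown replicate 3, without which the value was 0.78 (adjusted p = 0.08). Unlike MT1X, MT1F had a higher mean in rescue than in knockdown, but the libraries overlapped and the difference did not pass (log2 fold change 0.43, interval −0.25 to 1.12, adjusted p = 0.39).

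MT1E was not detectable at this depth. It had 0 counts in the control and rescue libraries, which allows up to 0.0427 CPM in control and 0.0417 CPM in rescue, and 1 count in knockdown replicate 3. These limits rest on 3 counts per group and cover counting error only.

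**Figure D1:**
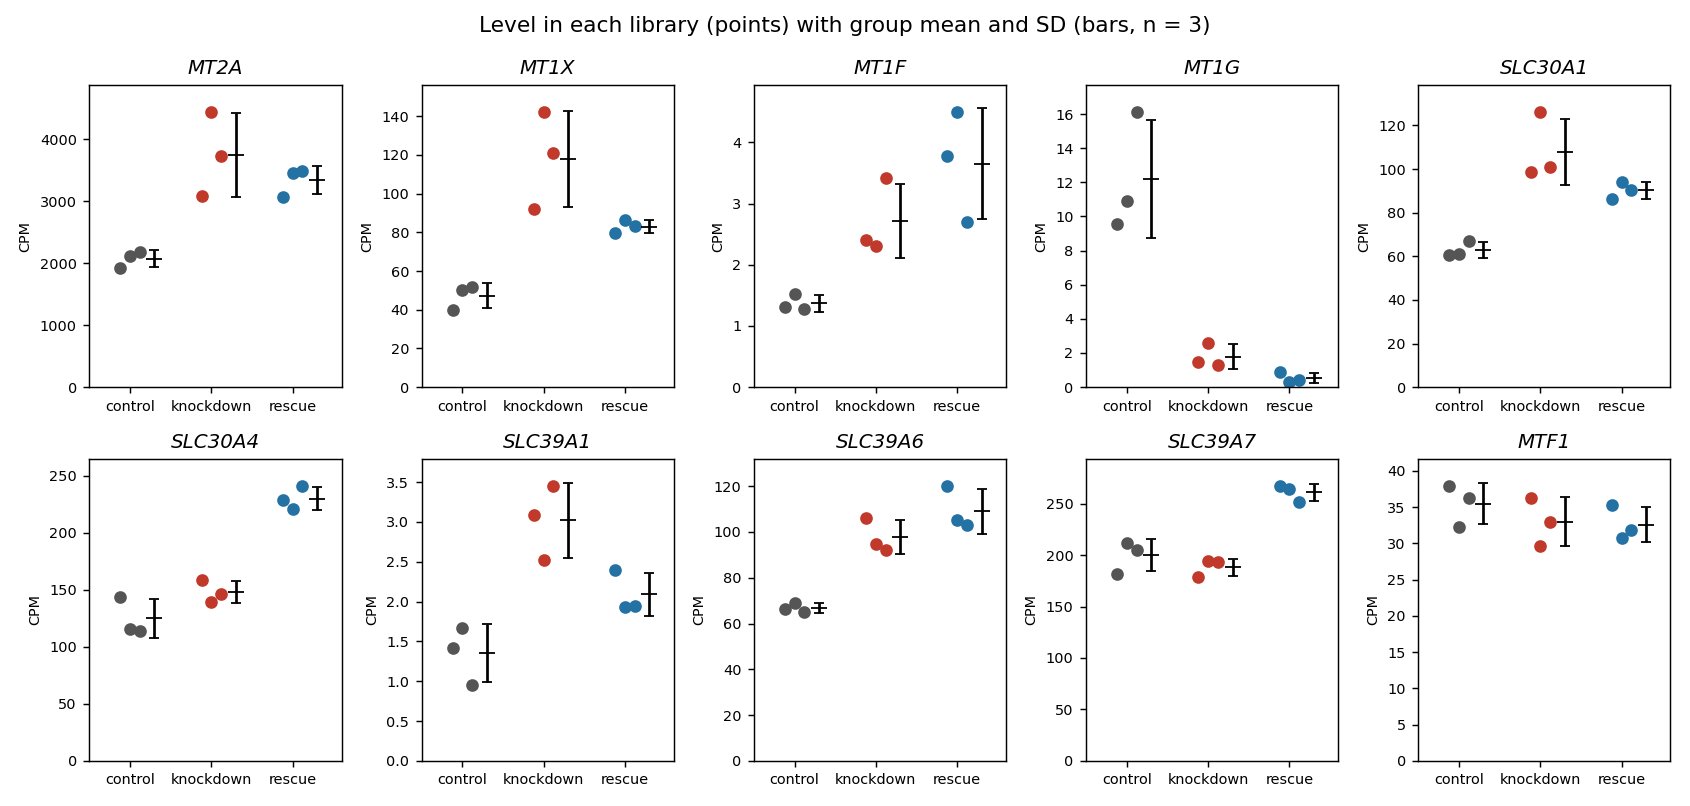
CPM of 9 tested members and of MT1G in each library (points), with the mean and SD of each group (bars, n = 3) and every axis starting at 0. MT2A, MT1X, MT1F and SLC30A1 lay higher in all knockdown than in all control libraries, MT1G lay lower, and MTF1 overlapped between groups.

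The wider family was read from a list of 13 other metallothionein genes and pseudogenes. Of these, 9 had 0 counts in all 9 libraries (up to 0.014 CPM by the 3-count limit), MT3 and MT1DP were too low to test, MT1IP was not used here, and MT1G was tested. MT3, known as the metallothionein of brain, had 14 reads in knockdown replicate 3, the library that also held the only MT1E read, and at most 6 in any other. MT1G went the other way from its neighbours. It had 255, 235 and 355 counts in control, 39, 62 and 28 in knockdown and 18, 8 and 11 in rescue, or 12.2 ± 3.47, 1.79 ± 0.711 and 0.538 ± 0.301 CPM. The 3 groups did not overlap. MT1G was lower in knockdown than in control (log2 fold change −2.76, SE 0.28, adjusted p = 1.7e-08) and lower again in rescue than in knockdown (−1.78, SE 0.37, adjusted p = 0.0019). The second call missed the threshold in limma voom (−1.82, adjusted p = 0.056).

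All metallothionein genes together took 0.216 ± 0.012% of gene counts in control, 0.380 ± 0.059% in knockdown and 0.342 ± 0.023% in rescue (SD, n = 3). MT2A supplied 96.7% to 97.6% of these reads in every library. MT1X reads per MT2A read were 2.28 ± 0.18% in control, 3.15 ± 0.15% in knockdown and 2.49 ± 0.10% in rescue, with every knockdown library above every control library. MT1G made up 0.567 ± 0.13% of metallothionein reads in control, 0.0457 ± 0.012% in knockdown and 0.0162 ± 0.01% in rescue. Each of these 3 shares gave p = 0.1 in a two-sided exact permutation test of knockdown against control, the smallest p that 3 libraries against 3 allow.

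MTF1, the factor that senses zinc, had 37.9, 32.3 and 36.2 CPM in control, 36.3, 29.6 and 33.0 in knockdown and 35.3, 30.8 and 31.8 in rescue. Its groups overlapped in all 3 comparisons. The log2 fold change was −0.11 in knockdown against control (interval −0.36 to 0.15, adjusted p = 0.49) and −0.12 in rescue against control (interval −0.38 to 0.13, adjusted p = 0.38). Its RNA level is a measure of the transcript and not of MTF1 activity.

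SLC30A1, the exporter of the plasma membrane, was at 60.8, 61.0 and 67.1 CPM in control, 98.7, 126 and 101 in knockdown, and 86.4, 93.9 and 90.2 in rescue. As with MT1X, the groups did not overlap and rescue lay in between. Knockdown exceeded control 1.72-fold (log2 fold change 0.78, SE 0.09, adjusted p = 3.6e-08), and rescue exceeded control 1.43-fold (adjusted p = 2.2e-05). The drop from knockdown to rescue was small (log2 fold change −0.27, SE 0.09, adjusted p = 0.046). Its adjusted p was 0.054 with DESeq2 size factors, 0.059 with DESeq2 and 0.062 with limma voom. Leaving out control replicate 2 (0.053), control replicate 3 (0.058), knockdown replicate 2 (0.39), rescue replicate 1 (0.18), rescue replicate 2 (0.073) or rescue replicate 3 (0.12) also ended the call, and without knockdown replicate 2 the log2 fold change was −0.14.

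Within the knockdown group, replicate 2 was the highest library for MT2A, MT1X and SLC30A1 alike. Without it, knockdown against control remained called for each of the 3 genes, and over all 15 alternatives the log2 fold changes ranged from 0.71 to 0.98 for MT2A, 1.18 to 1.48 for MT1X and 0.67 to 0.85 for SLC30A1.

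SLC30A4, which loads zinc into vesicles, followed another course. It was at 144, 116 and 114 CPM in control, 159, 139 and 146 in knockdown, and 229, 221 and 241 in rescue. Rescue lay above every other library, at 1.84-fold over control (log2 fold change 0.88, SE 0.08, adjusted p = 9.8e-10) and 1.56-fold over knockdown (0.64, SE 0.08, adjusted p = 3.2e-06). The difference between knockdown and control was 0.24 (SE 0.08, adjusted p = 0.023), with overlapping libraries. It was not called without control replicate 2 (0.20, adjusted p = 0.12), control replicate 3 (0.18, adjusted p = 0.16) or knockdown replicate 1 (0.19, adjusted p = 0.12). HMGN2P46, a pseudogene on the opposite strand that overlaps SLC30A4, averaged 14.9 CPM in knockdown and 21.5 CPM in rescue (log2 fold change 0.53, adjusted p = 0.0078), moving with SLC30A4. Its part in the SLC30A4 counts was not tested. The strand setting of the counting is not given in the sources used here, so part of the reads of such pairs may be left out or shared.

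**Figure D2:**
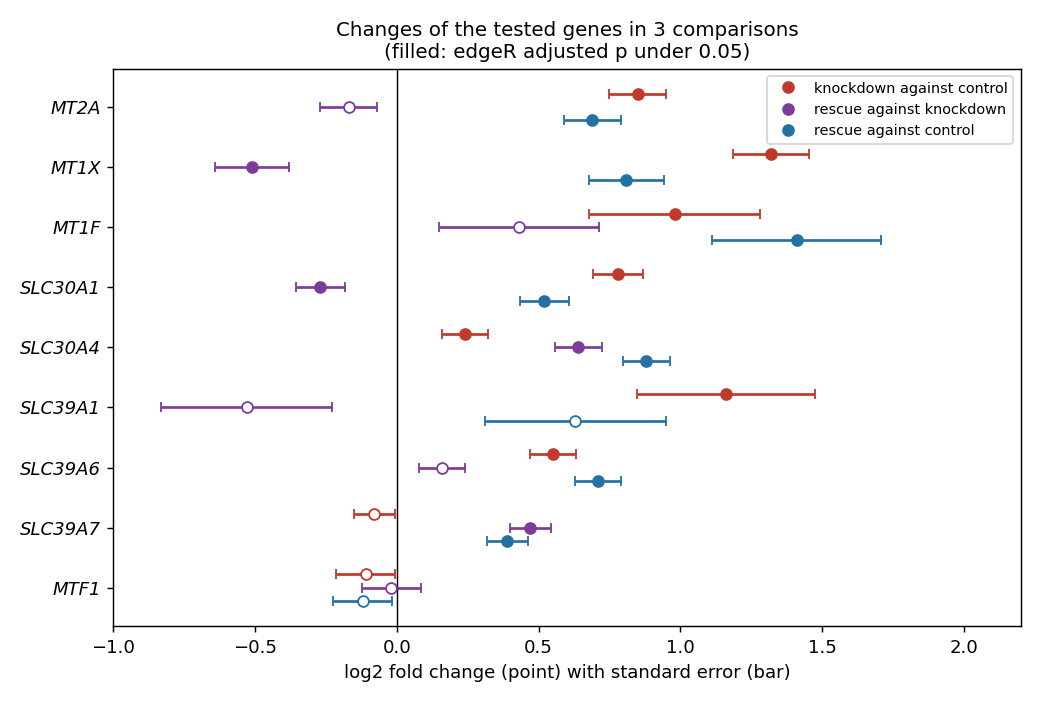
Log2 fold change of each tested member (points) with its standard error (bars) in the 3 comparisons, filled where the edgeR adjusted p was under 0.05. MT1X and SLC30A1 lay above 0 against control and below 0 in rescue against knockdown, whereas SLC30A4 and SLC39A7 were higher in rescue than in knockdown.

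Among importers, SLC39A6 (ZIP6), known as an estrogen-regulated gene of breast cancer cells, was at 66.4, 69.0 and 64.9 CPM in control, 106, 94.7 and 92.1 in knockdown, and 120, 105 and 103 in rescue. Every knockdown and rescue library exceeded the controls. Against control it was 1.46-fold higher in knockdown (0.55 ± 0.08 as log2 fold change ± SE, adjusted p = 4.5e-06) and 1.63-fold higher in rescue (0.71 ± 0.08, adjusted p = 4.7e-08). Rescue and knockdown overlapped (log2 fold change 0.16, interval −0.04 to 0.36, adjusted p = 0.24).

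SLC39A7 (ZIP7), which releases zinc from the endoplasmic reticulum, had 182, 212 and 205 CPM in control and 179, 194 and 193 in knockdown. These overlapped, with a log2 fold change of −0.08 (interval −0.26 to 0.09, adjusted p = 0.41). Rescue libraries were higher than all others at 267, 264 and 252 CPM. The gain was 1.39-fold over knockdown (0.47 on the log2 scale, SE 0.07, adjusted p = 4.4e-05) and 1.31-fold over control (adjusted p = 8.7e-05). RXRB, which overlaps SLC39A7 on the opposite strand, was at 72.3 ± 0.5 CPM in knockdown and 82.7 ± 1.82 in rescue (adjusted p = 0.17). It was higher in rescue than in control (0.27, SE 0.09, adjusted p = 0.014), as SLC39A7 was, and its part in the SLC39A7 counts was not tested.

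SLC39A1 (ZIP1), the importer most often linked to zinc uptake in prostate, was counted at 38, 36 and 21 reads in control, 81, 60 and 75 in knockdown, and 49, 48 and 52 in rescue. Knockdown libraries were the highest (log2 fold change 1.16 against control, SE 0.31, adjusted p = 0.005). Rescue did not pass against knockdown (log2 fold change −0.53, interval −1.27 to 0.21, adjusted p = 0.31) or against control (0.63, interval −0.15 to 1.41, adjusted p = 0.13), although its libraries lay between the other groups without overlap. These counts are uncertain as a level. In GENCODE v29, CREB3L4 overlaps the gene on the opposite strand. Of the 150-base windows of SLC39A1, 46.1% occurred in another gene. A same-strand protein-coding model (ENSG00000285779), at 0 counts in every library, shared the most of them. Reads in the shared stretch may have been set aside as ambiguous, and how many was not tested. CREB3L4 itself was higher in knockdown than in control (log2 fold change 0.59, SE 0.11, adjusted p = 0.00019). Its part in the SLC39A1 counts was not tested.

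The comparison of rescue with knockdown asked which members differed once UGT2B28 was overexpressed. Of 9 tested members, 2 were higher (SLC30A4 and SLC39A7) and 2 lower (MT1X and SLC30A1), where 10.1% of all tested genes were called, 5.20% higher and 4.88% lower. The background count of 1854 genes fell to 1196 without rescue replicate 1. The median log2 fold change was −0.02 over the members and 0.00 over all genes. Against control, rescue had 7 members higher and 0 lower, beside 19.0% of all genes called higher, 18.8% lower and 37.8% in all. These were MT2A, MT1X, MT1F, SLC30A1, SLC30A4, SLC39A6 and SLC39A7, with a median of 0.69 over the members and 0.00 over all genes. Each pair of these comparisons shares libraries, so they are not independent.

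Levels were compared among the members in CPM per kb of exon length (all exons of the gene in GENCODE v29, joined). This length exceeds that of any single transcript where isoforms differ, so levels per kb are lower limits for such genes. In control, MT2A stood far above the rest at 1600 ± 104 CPM per kb, followed by SLC39A7 at 70.2 ± 5.54 and MT1X at 26.7 ± 3.68. SLC39A6, at 18.1 ± 0.561, and SLC30A4, at 15.5 ± 2.09, came next among the members, with overlapping libraries. SLC30A1 stood at 11.5 ± 0.654 and MTF1 at 4.42 ± 0.358. MT1F, at 0.726 ± 0.0742, and SLC39A1, at 0.398 ± 0.107, had the lowest values of the 9 tested members. The SLC39A1 value may leave out reads in its overlaps with other genes, so its place is uncertain. In knockdown MT1X, at 66.8 ± 14.1, and SLC39A7, at 66.3 ± 2.86 CPM per kb, could not be ordered beyond their spread.

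The other zinc transporters were read from 2 lists. Among 9 other exporters 6 were tested, and in knockdown against control 3 were lower and 1 higher, with a median log2 fold change of −0.39. Over all tested genes 15.6% were lower and 16.5% higher. SLC30A3, the exporter known for filling synaptic vesicles, had 7.34, 5.15 and 4.54 CPM in control, 1.22, 0.925 and 0.874 in knockdown, and 1.27, 1.48 and 0.936 in rescue. Every control library stood above the rest. The knockdown value was −2.49 on the log2 scale (SE 0.31, adjusted p = 2.1e-07), and the gene was called lower in rescue against control too (adjusted p = 8.4e-07). SLC30A5 and SLC30A7, which supply zinc to enzymes of the secretory pathway, fell by 0.32 (SE 0.08, adjusted p = 0.003) and 0.46 (SE 0.11, adjusted p = 0.0016). SLC30A9, the mitochondrial exporter, was higher by 0.20 (SE 0.08, adjusted p = 0.043). That difference did not pass in 6 of 9 fits that left out 1 library (control replicate 1 or 2, knockdown replicate 1 or 2, or rescue replicate 1 or 2, at adjusted p of 0.052 to 0.16). It did not pass without the low-count filter (0.071) or with only the groups compared (0.067) either. Members included, SLC30A1, SLC30A4 and SLC30A9 were thus called higher and SLC30A3, SLC30A5 and SLC30A7 lower. The calls of SLC30A4 and SLC30A9 were lost in 3 and 6 of the 9 fits without 1 library.

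In rescue against knockdown, 0 of the 6 were called by edgeR, by DESeq2 or by limma voom, and 1, SLC30A9, had an unadjusted edgeR p under 0.05. Against control, rescue had SLC30A9 higher and SLC30A3, SLC30A5 and SLC30A7 lower. Without control replicate 2 that count of 4 dropped to 2, since SLC30A5 (−0.18, adjusted p = 0.11) and SLC30A7 (−0.25, adjusted p = 0.11) lost their calls, and SLC30A7 also did without rescue replicate 1 (−0.24, adjusted p = 0.14).

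Among 11 other importers 8 were tested, with a median log2 fold change of 0.03 in knockdown against control and 2 called, beside 32.1% of all tested genes. SLC39A8 (ZIP8), which carries zinc and manganese, was the 1 called higher. It was at 17.6, 16.9 and 17.5 CPM in control, 34.7, 27.7 and 32.7 in knockdown, and 32.4, 32.5 and 31.3 in rescue, with no overlap between control and the others (log2 fold change 0.87, SE 0.11, adjusted p = 2.5e-07). SLC39A13 (ZIP13), which moves zinc out of vesicles, was the 1 called lower, at −0.60 (SE 0.10, adjusted p = 3.1e-05). SLC39A14 (ZIP14), a carrier of zinc, iron and manganese, had a log2 fold change of 0.16 there (adjusted p = 0.11, or 0.042 without knockdown replicate 3). It rose in rescue against knockdown by 0.35 (SE 0.07, adjusted p = 0.0018) and against control by 0.51 (SE 0.07, adjusted p = 2.9e-06). SLC39A9 was higher in rescue than in control (0.24, SE 0.07, adjusted p = 0.012), but not without control replicate 2 (0.065) or rescue replicate 1 (0.068).

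**Figure D3:**
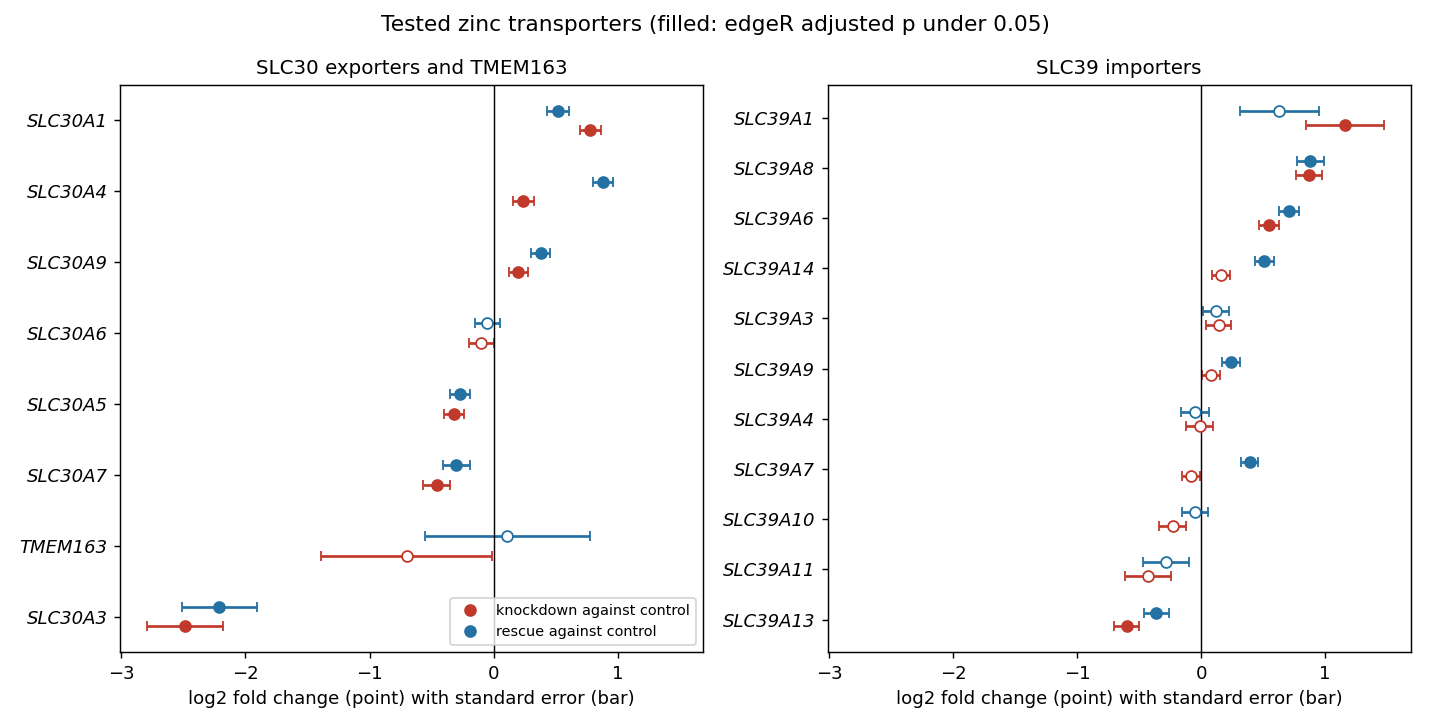
Log2 fold change (points) and standard error (bars) of every tested SLC30 exporter, TMEM163 and SLC39 importer in knockdown and in rescue, both against control, filled where the edgeR adjusted p was under 0.05. SLC30A1, SLC30A4, SLC39A6 and SLC39A8 lay above 0 in both, and SLC30A3 lay lowest, at −2.49 and −2.21.

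The metallothionein genes lie side by side on chromosome 16, and their neighbours were listed as well. In GENCODE v29 the order runs from NUDT21, OGFOD1 and BBS2 through MT4, MT3, MT2A, MT1E, MT1F, MT1G, MT1H and MT1X, among others, to NUP93. Of 9 listed neighbours 6 were tested. In knockdown against control 4 were higher and 0 lower, with a median log2 fold change of 0.32, beside 16.5% higher and 15.6% lower over all tested genes. NUP93, a nuclear pore protein and the nearest protein-coding neighbour beyond MT1X, was at 42.2, 43.1 and 35.1 CPM in control, 74.0, 67.3 and 72.9 in knockdown, and 123, 124 and 122 in rescue. Its groups did not overlap (log2 fold change 0.83, SE 0.08, adjusted p = 7.1e-09 for knockdown against control, and 0.78, SE 0.08, adjusted p = 1.2e-07 for rescue against knockdown). BBS2, next to MT4 at the other end, was higher by 0.30 (SE 0.08, adjusted p = 0.0039), and HERPUD1, a gene of the endoplasmic reticulum stress response, by 0.57 (SE 0.09, adjusted p = 8.3e-06). NUDT21, a factor of mRNA 3′ end processing, was higher by 0.33 (SE 0.08, adjusted p = 0.00092).

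In rescue against knockdown NUP93 and OGFOD1 were called higher (5.20% of all tested genes were), and the count of 2 dropped to 1 without knockdown replicate 1, rescue replicate 2 or rescue replicate 3, since OGFOD1 (0.33, adjusted p = 0.032) lost its call. OGFOD1 also lost it without knockdown replicate 2 (0.14) or rescue replicate 1 (0.079). All 6 were higher in rescue than in control, where 19.0% of all tested genes were. OGFOD1 was the least certain, lost without control replicate 1 (adjusted p = 0.094), control replicate 3 (0.069), rescue replicate 1 (0.063) or rescue replicate 3 (0.11), and without the low-count filter (0.059).

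**Figure D4:**
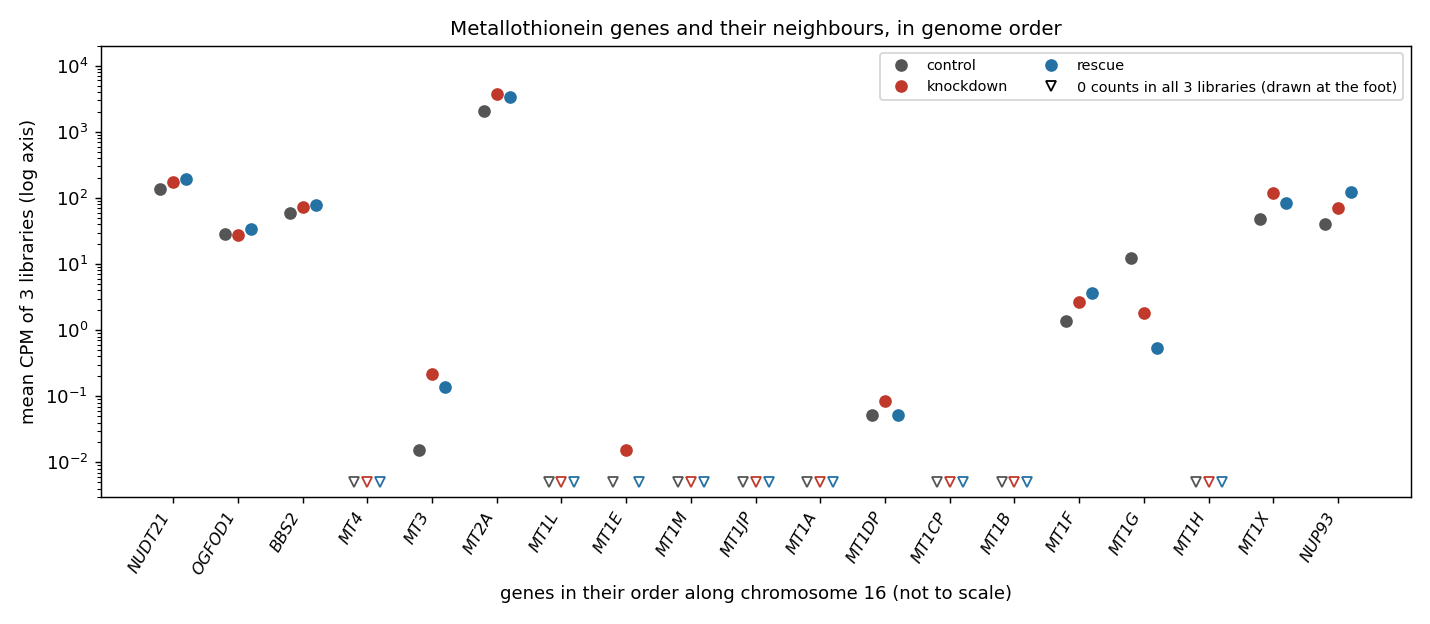
Mean CPM of 3 libraries per group on a log axis for the listed metallothionein genes and 4 of their neighbours, in their order along the chromosome and not to scale, with open triangles for genes at 0 counts in all 3 libraries of a group. MT2A, MT1F and MT1X lay higher in knockdown and rescue than in control, MT1G between MT1F and MT1H lay lower, and most of the remaining metallothionein genes had no reads.

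Copper-handling genes, read because metallothioneins also bind copper, went both ways. Of 13 tested, 3 were higher and 2 lower in knockdown against control, with a median log2 fold change of 0.10. Over all tested genes 32.1% were called, so the share among copper genes was near the background. The count of 5 fell to 3 without control replicate 1 or knockdown replicate 2 and to 1 without knockdown replicate 3. CP, the copper-carrying ferroxidase ceruloplasmin, averaged 12.7 CPM in control and 6.41 in knockdown (−0.98, SE 0.18, adjusted p = 1e-04), without overlap. In rescue against knockdown 1 was higher and 1 lower, beside 10.1% of all tested genes called. The copper exporter ATP7B was the lower one (−0.51, SE 0.13, adjusted p = 0.0082), and the higher one, the metalloreductase STEAP2 (0.26, SE 0.08, adjusted p = 0.023), was not called without knockdown replicate 2 (0.12), rescue replicate 1 (0.13) or rescue replicate 3 (0.083).

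Heat shock genes, which metal exposure is known to induce together with metallothioneins, had 6 of 11 genes higher and 0 lower in knockdown against control, with a median of 0.24, beside 16.5% higher and 15.6% lower over all tested genes. HSP90AA1, a cytosolic chaperone, rose by 0.73 (SE 0.07, adjusted p = 5.1e-09) and DNAJB1, a co-chaperone of HSP70, by 0.47 (SE 0.08, adjusted p = 5.7e-05). HSPA1B, whose reads are hard to separate from its near-identical copy HSPA1A, was higher by 0.41 (SE 0.11, adjusted p = 0.0039) but did not pass when knockdown replicate 3 was left out (0.25, adjusted p = 0.064). DNAJA1 (0.22, adjusted p = 0.042) lost its call in 4 of 9 fits without 1 library, with DESeq2 (0.059) and with only the groups compared (0.061). BAG3 (0.24, adjusted p = 0.015) lost its call without control replicate 2 (0.071) or control replicate 3 (0.11). HMOX1, heme oxygenase, a gene that cadmium induces, did not pass in knockdown against control (0.07, SE 0.08, adjusted p = 0.55). Of the 11, 2 (HSP90AA1 and HSPA1B) were higher and 2 (HSF1 and HMOX1) lower in rescue against control, with a median of 0.13. Over all tested genes 19.0% were higher and 18.8% lower there. In rescue against knockdown 3 of 11 were lower and 0 higher, beside 4.88% and 5.20% over all tested genes, with HMOX1 at −0.52 (SE 0.08, adjusted p = 3.7e-05). That count of 3 fell to 1 without knockdown replicate 3, rescue replicate 2 or rescue replicate 3. BAG3, one of the 3 (−0.23, adjusted p = 0.047), lost its call in 8 of 9 fits without 1 library. It also did so with DESeq2 size factors (0.054), limma voom (0.052) and no low-count filter (0.076).

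The genes most like MT2A and SLC30A1 in pattern were ranked by Pearson correlation of log2 CPM over the 9 libraries, among tested genes outside these lists with a mean of at least 5 CPM. For MT2A the first 5 were PHF1 (0.985), RSRC2 (0.984), C1orf122 (0.978), GDF15 (0.977) and FAHD2B (0.975). For SLC30A1 they were YEATS4 (0.989), GDF15 (0.988), ZNF821 (0.979), DYNLRB1 (0.978) and CRCP (0.976). GDF15, a stress-induced secreted factor, was in both rankings, at 12600 CPM on average in control, 19200 in knockdown and 16400 in rescue. The 9 libraries fall into 3 groups and share their group differences, so these values describe a common course over the groups.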

How the data were processed

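Total RNA of 9 LNCaP libraries was sequenced. Each library has 1 deposited table, which holds raw read counts by gene. Per the submitters' processing notes, the authors used FastQC, cutadapt, HISAT2 and HTSeq with hg19. Versions, strand setting and library kit were not given in the sources used. Of a table's total, genes took 40.3% to 42.92%. The summary rows for no feature (48.83% to 50.71%), ambiguous (2.26% to 2.67%) and non-unique alignment (5.26% to 7.62%) were left out. Gene IDs were matched to symbols in the symbol table (56373) or GENCODE v29 alone (485).

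The test was edgeR 4.0.16 in R 4.3.3: filterByExpr with a minimum count of 10, TMM scaling, and a robust quasi-likelihood fit to all 9 libraries with 1 mean per group. Calls used a Benjamini-Hochberg adjusted p under 0.05 over 18389 genes, and every adjusted p of a single gene comes from this test unless another tool is named. SEs were derived from the F statistic, dividing each fold change (log2) by its square root, and intervals use them with 6 residual degrees of freedom. CPM use TMM-adjusted library sizes, and ± is SD over 3 libraries. The fit was tested on simulated counts. No 2 tables were identical. Alternatives were DESeq2 1.42.0, its size factors within edgeR, voom of limma 3.58.1, no filter, fewer groups, a replicate term and fits without each library.

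Members and lists were chosen with earlier results of these data known. The named genes are all members and up to 5 called genes of each further list per comparison by smallest adjusted p (named in part). Also named are the 5 genes nearest in pattern to MT2A and to SLC30A1, and DNAJA1, added for its unstable call. Some cell type markers outside this rule, such as KRT18 and EPCAM, are named too. Metallothionein read shares and single libraries were looked at after the values were seen.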

Additional observations from a re-analysis of the deposited data

How the results depend on the processing

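For the 9 tested members in 3 comparisons, other filters, scalings, tests, sets of groups or a replicate term gave 162 refits. Of these, 159 kept their side of the threshold, and the other 3 were SLC30A1 in rescue against knockdown. Of 243 refits without 1 library, 228 kept their side. Direction was checked only where the main fit called the gene, and no such call was reversed. An uncalled gene counted as kept even if its sign changed. MTF1 in rescue against knockdown ranged from −0.09 to 0.06 and counted as kept in all 15 refits. Members called lower in rescue against knockdown numbered 1, in place of 2, with DESeq2 size factors, DESeq2 or limma voom, and 0 to 2 without single libraries; there the count of all genes called ranged from 1196 to 2364, and its low came without rescue replicate 1. Each lone or reduced group was then assumed to vary like the others. Same-numbered libraries deviated together in 1 of 9 pairs (correlation over 0.1, range −0.025 to 0.125), with control 2 and knockdown 2 just under that cut at 0.098. Control 1 and rescue 3, of different numbers, reached 0.111. Of 9 libraries, 5 matched best with their own number outside their group. These values do not settle whether the numbers mark pairs. The labels do not say that they do, so the main test used no replicate term. With the replicate block the counts of all genes called were 6348 in knockdown against control, 2319 in rescue against knockdown and 7363 in rescue against control, and members called higher were 7, 2 and 7. Outside the members the block raised the neighbours called in rescue against knockdown from 2 to 4 and the luminal markers from 4 to 7. Low counts limit MT1F, SLC39A1, MT1G in rescue, and MT1E.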
